A study of Homo sapiens with 10 samples.

Results

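The genes described here were 45 interferon-stimulated genes with the IFIT family, followed in human hTERT RPE-1 cells, a wild-type line of retinal pigment epithelium immortalised with telomerase. They were chosen by name from known interferon targets, and the choice also used their control level and their change of log2(RPKM + 1) within each experiment, so every value of theirs below is a description. All 45 were found among the 20327 genes of each table. RPKM is the number of reads scaled to the length of the gene in kilobases and to the size of the library. The series measured polyadenylated RNA in 10 libraries of cells kept for 48 h in medium with 0.1% serum. One experiment compared merbarone, a catalytic inhibitor of topoisomerase II, at 200 µM for 30 min with the vehicle DMSO for 30 min (3 libraries per group). The other compared 200 µM merbarone for 2 h with untreated cells (2 libraries per group), so its controls had received no vehicle. No interferon or other immune stimulus is named in the labels. All groups come from 1 cell line, and the labels do not say whether replicates were separate cultures, so the spread between replicates may be technical.

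Interferons are secreted proteins that bind receptors at the cell surface and, through the kinases JAK1 and TYK2, activate transcription factors of the STAT family. STAT2 and IRF9 are subunits of ISGF3, which binds the interferon-stimulated response element (ISRE). Another sequence, the gamma-activated site (GAS), takes part in the response to interferon gamma. The genes that follow encode proteins that sense viral RNA, block its translation, degrade it, modify other proteins or present antigens, and many are transcribed at a low level without added interferon.

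Recovered depth was 26637511 to 38230034 reads per library in the 30 min experiment and 11960134 to 13696941 reads in the 2 h experiment. Replicates correlated at 0.981 to 0.996 (Pearson, across genes, which are not independent replicates), and no pair agreed within sampling noise, since chi-square statistics were 4.15 to 63.3 per degree of freedom. Of 8 markers of retinal pigment epithelium, BEST1, OTX2 and PMEL averaged at least 1 RPKM, while RPE65, RLBP1, TYR and TYRP1, which define the mature tissue, lay at or below 0.0656 RPKM in every library. BEST1 overlaps FTH1 and PMEL overlaps CDK2 in the annotation, so their values may hold reads of the neighbour. Both keratin markers of epithelium were above 1 RPKM. None of 8 leukocyte markers reached that level. Their summed RPKM was 0.128 to 0.174 with DMSO, 0.151 to 0.227 after 30 min of merbarone, 0.113 to 0.254 in untreated cells and 0.276 to 0.481 after 2 h, with CD3E and CLEC4C at 0 reads in every library. The higher sum at 2 h came mainly from CSF1R (mean 0.0486 RPKM untreated and 0.109 RPKM treated) and CD14. CD14 had 0.259 RPKM in merbarone replicate 1, on at most 7 reads. PTPRC, at 0.00555 and 0.00498 RPKM, was not higher.

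Promoter sequences are shown for 3 IFIT genes, for ISG15 and for IRF1, because the first 4 hold copies of the ISRE core, whereas IRF1, the member that was higher at 2 h, holds the GAS core and no ISRE core. ISG15 and IRF1 were added after their values were seen. Each run holds 250 bases before and 20 bases from the annotated start of transcription on, 5′ to 3′ on the gene's strand, from the RefSeq table of GRCh38.p14. Each occurs exactly once on its chromosome in GRCh37, at the position given. Capitals mark the ISRE core, GAAANNGAAA on either strand, in the first 4 and the GAS core, TTCNNNGAA, in IRF1.
IFIT1 (chr10:91152130-91152399, plus strand): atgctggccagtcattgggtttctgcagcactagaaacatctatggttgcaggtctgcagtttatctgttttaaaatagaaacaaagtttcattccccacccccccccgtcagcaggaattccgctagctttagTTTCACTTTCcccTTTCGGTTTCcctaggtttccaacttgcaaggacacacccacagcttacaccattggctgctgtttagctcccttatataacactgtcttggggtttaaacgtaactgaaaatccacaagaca
IFIT3 (chr10:91087504-91087773, plus strand): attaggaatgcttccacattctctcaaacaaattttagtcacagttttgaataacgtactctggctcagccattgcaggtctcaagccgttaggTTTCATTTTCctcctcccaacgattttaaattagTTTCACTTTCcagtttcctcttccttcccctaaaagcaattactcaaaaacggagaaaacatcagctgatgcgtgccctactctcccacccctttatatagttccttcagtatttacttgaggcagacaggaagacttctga
IFIT5 (chr10:91174075-91174344, plus strand): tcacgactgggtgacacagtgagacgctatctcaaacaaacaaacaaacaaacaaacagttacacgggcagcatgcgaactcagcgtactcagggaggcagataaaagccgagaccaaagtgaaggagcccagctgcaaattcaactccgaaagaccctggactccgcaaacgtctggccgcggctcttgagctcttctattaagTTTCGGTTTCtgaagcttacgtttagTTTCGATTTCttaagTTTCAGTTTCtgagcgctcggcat
ISG15 (chr1:948627-948896, plus strand): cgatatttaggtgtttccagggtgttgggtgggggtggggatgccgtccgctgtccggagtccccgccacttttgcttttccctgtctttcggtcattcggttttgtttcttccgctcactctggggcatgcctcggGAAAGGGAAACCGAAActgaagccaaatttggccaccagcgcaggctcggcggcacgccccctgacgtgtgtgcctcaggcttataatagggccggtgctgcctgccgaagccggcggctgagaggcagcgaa
IRF1 (chr5:131826446-131826715, minus strand): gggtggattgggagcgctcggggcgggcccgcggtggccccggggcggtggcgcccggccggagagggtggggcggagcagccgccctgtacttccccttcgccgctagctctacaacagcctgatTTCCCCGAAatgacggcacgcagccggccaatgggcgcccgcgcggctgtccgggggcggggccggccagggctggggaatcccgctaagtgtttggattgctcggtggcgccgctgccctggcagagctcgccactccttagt
Counted in bases from the start, the 2 matches of IFIT1 begin at -116 and -103. In IFIT3, whose most upstream start is shown, they begin at -156 and -122. The 3 matches of IFIT5 begin at -45, -19 and -4, so the last of them crosses the start. In ISG15 the 2 matches begin at -113 and -107 and overlap. IRF1 has its GAS core at -124 and no ISRE core in the window.

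Among the 45 genes, 36 had a promoter in the table, with 300 bases searched around each start on both strands and overlapping matches of a motif or of both motifs counted separately. The ISRE core was found in 24 of these 36 genes (66.7%), against 4.38% of 27305 genes and 3.57% of 35116 promoters in the table. For the GAS core the numbers were 10 of 36 (27.8%), against 9.38% of genes and 7.66% of promoters. Genes known as interferon targets are partly known as such through these elements, so the shares describe the list. A match is a run of letters and not a binding site. IRF7, IFIT2, DHX58, USP18, OASL, TRIM22, MX2, OAS2 and IFITM2 had no entry.

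**Figure D1:**
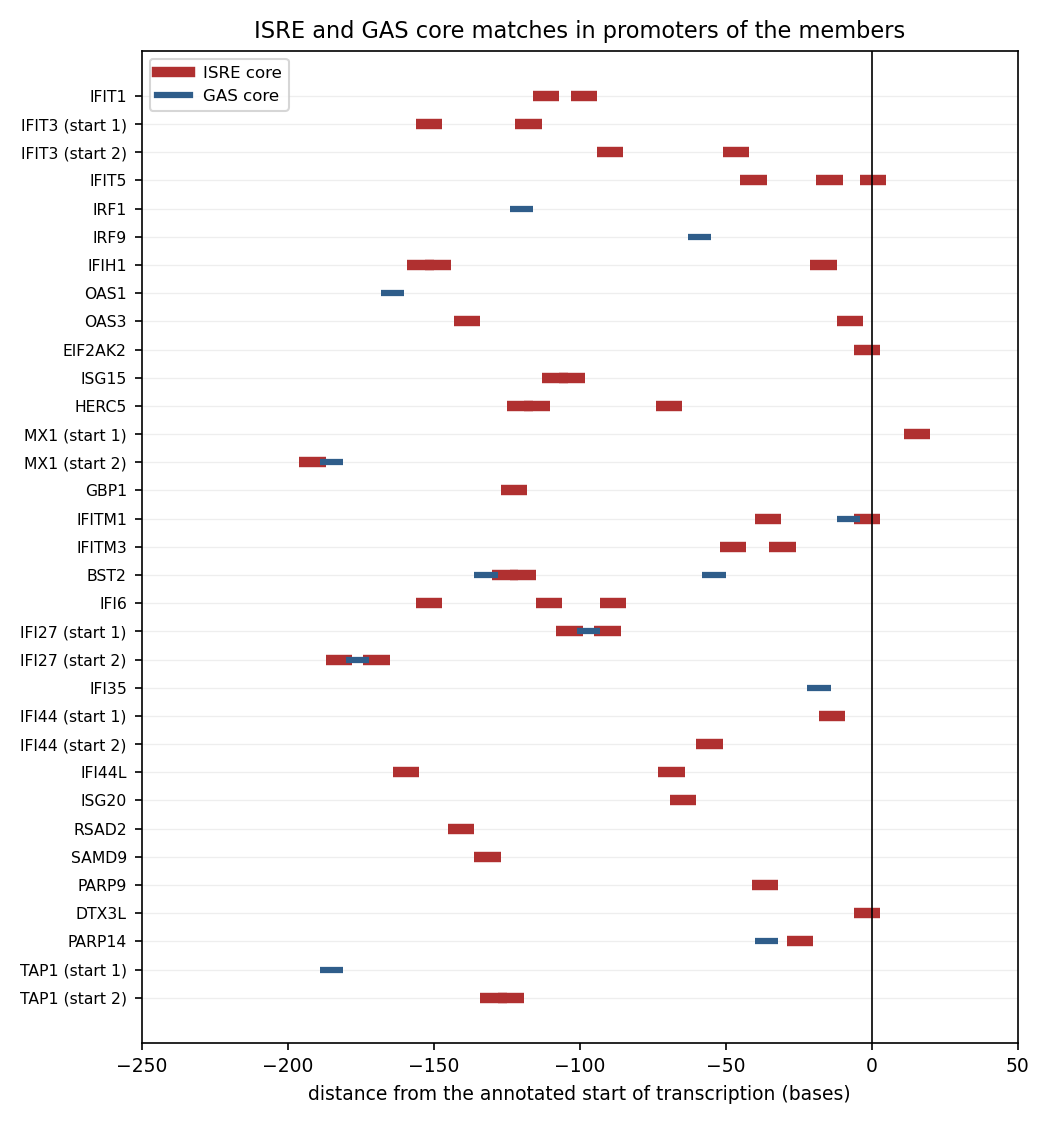
Position of each ISRE core match (red) and GAS core match (blue) in the promoters of the interferon-stimulated genes that hold one, in bases from the annotated start of transcription (vertical line); genes with several starts have a row for each start that holds a match. The 2 matches of IFIT1 begin at -116 and -103, and the last of the 3 in IFIT5 crosses the start.

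In control cells the genes spanned a range from 0 reads to 12.3 RPKM. A mean of at least 1 RPKM was reached by 24 of the 45 genes with DMSO, where 32% of all genes did, and by 23 in untreated cells, where 32.3% did. The median of the 45 was 1.05 RPKM with DMSO and 1.14 RPKM in untreated cells. STAT2 had the highest mean with DMSO, 8.64 RPKM, and IFITM3 the highest in untreated cells, 12.3 RPKM. Below 0.1 RPKM lay 10 genes with DMSO and 9 in untreated cells. For most genes the deposited values divide by the whole gene with its introns, so genes with long introns have low values at equal numbers of transcripts.

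The lowest levels belonged to strongly inducible antiviral effectors. CMPK2, a nucleotide kinase beside RSAD2 in the genome, had 0 reads in every library, where a count of 0 allows up to 3 reads of the library total (for counting error only). RSAD2, which encodes viperin, had 1 read in 1 library. XAF1 and OASL had at most 9 reads per library, USP18, which removes ISG15 from proteins, at most 13, and MX2, a dynamin-like GTPase that blocks retroviruses, at most 18. MX1, its relative active against influenza virus, reached 33 reads, BST2, which tethers budding virions, 30, IFI27 36 and the exonuclease ISG20 43. At these depths, differences between groups in such genes were mostly not detectable. RIGI and IFIH1, cytoplasmic sensors of viral RNA, lay at 0.353 to 0.541 RPKM and at 0.192 to 0.316 RPKM, while their regulator DHX58 lay at 0.540 to 1.01 RPKM.

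Between the 2 kinds of control the largest ratios among tested genes belonged to membrane restriction factors. IFITM3, which blocks fusion of viruses in endosomes, measured 2.35, 2.91 and 2.77 RPKM with DMSO and 10.6 and 14.0 RPKM in untreated cells, a ratio of means of 4.61. IFITM2, a close relative, had 4.55, 4.90 and 4.51 RPKM with DMSO against 8.15 and 10.5 RPKM, a ratio of 2.0. Neither gene's groups overlapped. For the other 22 genes tested in either experiment the ratio of untreated to DMSO lay between 0.633 and 1.41. SAMD9, an antiviral factor too low to be tested, went the other way, from 0.554, 0.697 and 1.02 RPKM to 0.118 and 0.0949 RPKM. Genes outside the interferon response also differed between the experiments: KRT18 averaged 17 RPKM with DMSO and 59.5 RPKM in untreated cells, and BEST1 2.58 and 18.8 RPKM. KRT18 overlaps KRT8 and BEST1 overlaps FTH1, so part of these values may be reads of the neighbour. Experiment, depth, vehicle and time cannot be told apart in these ratios, so treated libraries are compared below only with the controls of their own experiment.

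**Figure D2:**
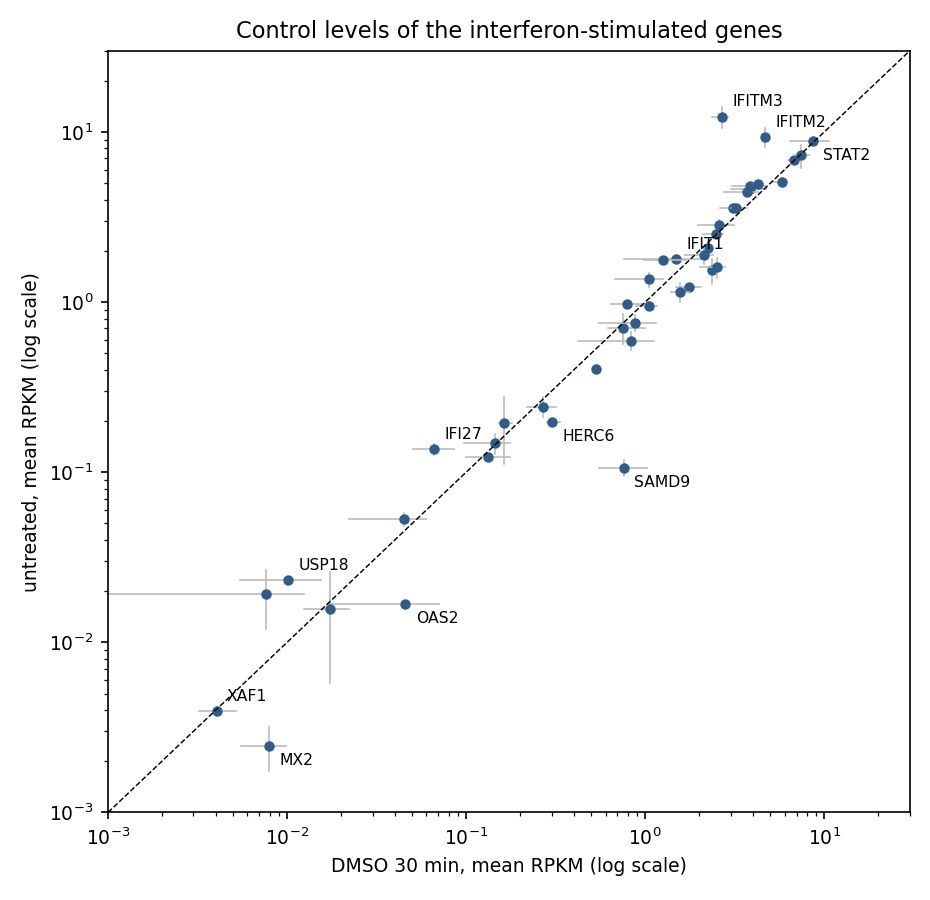
Mean RPKM of the 43 interferon-stimulated genes above 0 in both controls, DMSO for 30 min on the horizontal axis and untreated cells on the vertical axis (both log scales). Points are means of 3 and 2 libraries, grey lines run from the lowest to the highest library and are clipped at the axis, and the dashed line marks equal levels; IFITM3 and IFITM2 lie above it and SAMD9 below it.

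After 30 min of merbarone no member of the set had passed the threshold, and after 2 h a few had, led by IFIT1, IFIT2 and IFIT3. Tests used limma on log2(RPKM + 1) over all genes whose mean in the experiment reached 1 RPKM, with Benjamini-Hochberg adjusted p under 0.05 as the threshold. At 30 min 23 of the 45 genes were tested and 22 were too low. Of these 23, 0 were lower and 0 higher, against 0% and 0.0154% of 6500 genes (0 and 1 genes). At an unadjusted p under 0.05 there were 0 members in limma, against 24 of all genes. By voom, limma's test on the recovered reads, there were 0 of 39, against 41 of all genes. Those fits did not use the replicate numbers. With the replicate number as a block there were 5 of the 23 members in limma, against 208 of 6500 genes. By voom with the block there were 6 of 39 members, against 480 of all genes. The number of genes that voom tested at 30 min is not given here, so 41 and 480 are not shares. The median log2 fold change of the 23 was -0.06, where that of all genes was -0.0070, and 20 of 23 lay below 0, as did 57.7% of all genes. Treated and control libraries overlapped for all 23, while 1.40% of all genes had every treated library below every control and 0.877% above.

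At 2 h, 23 of the 45 were tested, of which 6 were lower and 1 was higher, where 7.10% and 5.98% of 6620 genes were lower and higher. IFIT1, IFIT2, IFIT3, ISG15, UBE2L6 and IFITM1 were lower and IRF1 was higher. The median log2 fold change was -0.22 for the members and -0.05 for all genes, and 19 of 23 lay below 0, as did 60.3% of all genes. Both treated libraries lay below both controls for 13 members and above them for 1, against 39.0% and 22.5% of all genes. The rule that chose the genes used these same comparisons, so the counts describe the set. In bulk RNA, fewer cells with a transcript and less RNA per cell cannot be told apart.

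The filter on low values sets which members count. At 30 min PARP9 (mean 1.01 RPKM) and GBP1 (1.3 RPKM) lay just inside it and IFITM1 (0.952 RPKM) and IFI44 (0.843 RPKM) just outside. At 2 h IFITM1 (1.03 RPKM) and IFIT1 (1.1 RPKM) lay just inside and IRF7 (0.944 RPKM) and DHX58 (0.941 RPKM) just outside. IFIT1 averaged 1.79 RPKM untreated and 0.411 RPKM after merbarone, and IFITM1 1.36 and 0.702 RPKM. Both thus entered the 2 h test only through the untreated group, where they were higher. In all, 24 genes were tested in at least 1 experiment and 21 in neither.

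**Figure D3:**
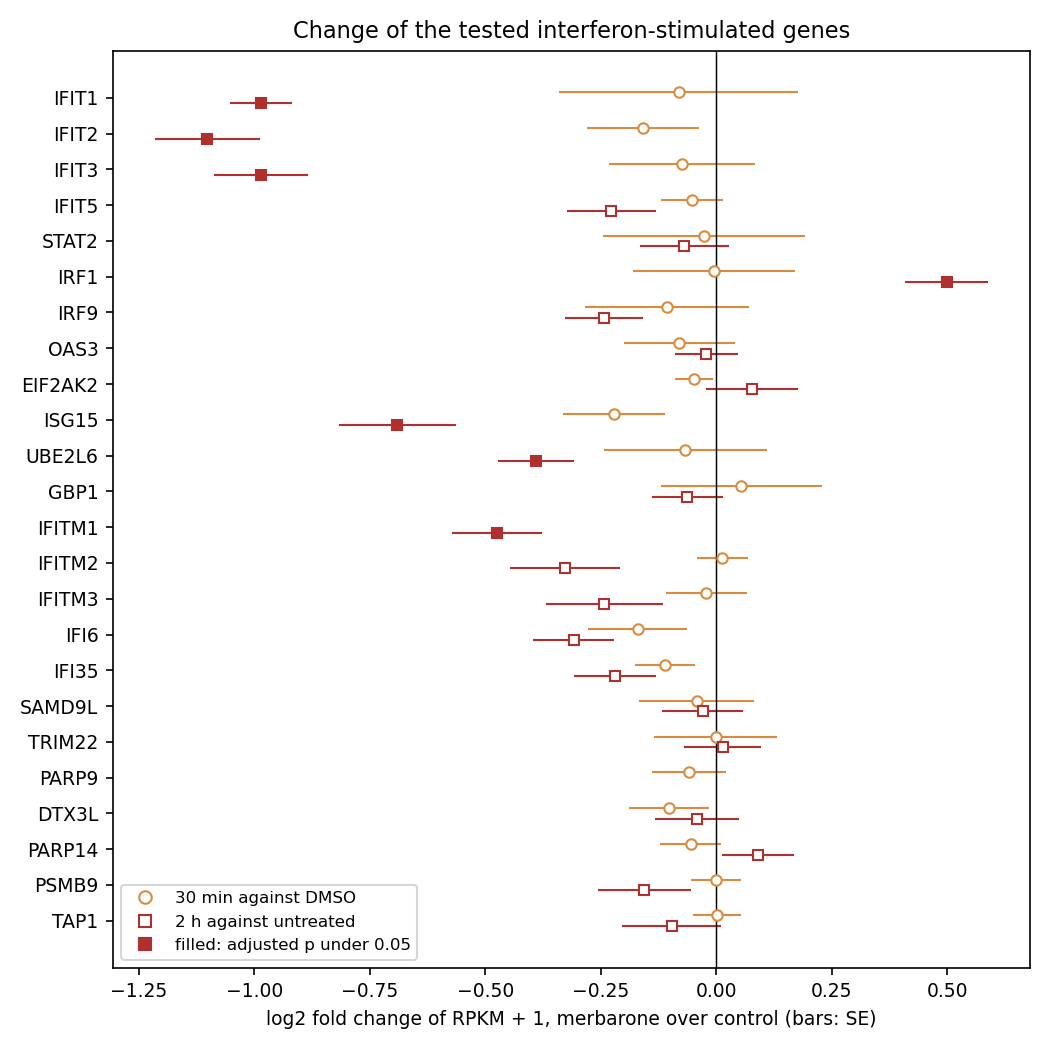
Log2 fold change of RPKM + 1 for the 24 interferon-stimulated genes tested in at least 1 experiment, merbarone over control, at 30 min (circles) and 2 h (squares), with bars of 1 SE; filled symbols passed an adjusted p of 0.05. IFIT1, IFIT2, IFIT3, ISG15, UBE2L6 and IFITM1 are filled to the left of 0 and IRF1 to the right at 2 h, and no symbol is filled at 30 min.

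The IFIT family encodes tetratricopeptide-repeat proteins that bind viral RNA or translation factors. In GRCh37 the genes lie in 1 cluster on chromosome 10, IFIT2 at 91043451 to 91069028, IFIT3 at 91087064 to 91137230, IFIT1 at 91152303 to 91166244 and IFIT5 at 91174325 to 91181362, all on the plus strand. The first 3 had the largest falls at 2 h among the 23 tested members, and the difference of the fourth did not pass.

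IFIT1 measured 1.70 and 1.88 RPKM in untreated cells and 0.453 and 0.368 RPKM after 2 h. That is a ratio of means of 4.37 and a log2 fold change of -0.99 ± 0.07 (SE), on 55 to 260 reads per library. The pseudocount of 1 understates changes of low genes, and voom on the recovered reads gave -2.12 ± 0.20 for this gene. At 30 min its values were 0.758, 1.59 and 2.10 RPKM with DMSO and 0.719, 1.46 and 1.82 RPKM with merbarone, a log2 fold change of -0.08 ± 0.26. The treated libraries at 2 h lay far below the controls. At 30 min the groups overlapped, yet merbarone was the lower in each of the 3 same-numbered pairs, and the SE with the replicate number as a block was 0.03. IFIT1 did not pass with the block either.

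For IFIT2 the untreated libraries had 3.37 and 3.72 RPKM and the 2 h libraries 1.40 and 0.869 RPKM. Its mean was 3.13-fold lower (log2 -1.10 ± 0.11; voom -1.67 ± 0.19), on 83 to 329 reads. It had 2.61, 3.05 and 3.68 RPKM with DMSO and 2.29, 2.62 and 3.13 RPKM after 30 min, a log2 fold change of -0.16 ± 0.12 with overlapping groups. Each of the 3 pairs was lower with merbarone, the SE with the block was 0.03, and it did not pass.

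IFIT3 went from 4.78 and 4.40 RPKM in untreated cells to 2.09 and 1.58 RPKM at 2 h. The mean was 2.51-fold lower (log2 -0.99 ± 0.10; voom -1.34 ± 0.14), on 269 to 834 reads. The DMSO libraries had 3.01, 3.85 and 4.72 RPKM and after 30 min 2.88, 3.75 and 4.18 RPKM, a log2 fold change of -0.07 ± 0.16. The treated libraries lay well below the controls at 2 h. At 30 min the groups overlapped, each of the 3 pairs was lower with merbarone (SE with the block 0.04), and the gene did not pass. Lower values in all 3 pairs were not particular to the IFIT genes. UBE2L6, IRF9, IFI35, EIF2AK2, PARP9, DTX3L and PARP14 had them too. Their SE with the block was 0.03 to 0.04, and none passed.

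IFIT5 was the most abundant of the 4 in the controls of both experiments. Its untreated libraries had 6.79 and 6.94 RPKM and its 2 h libraries 6.17 and 5.31 RPKM, a log2 fold change of -0.23 ± 0.10 that did not pass. The treated libraries lay below the controls, and the mean was 1.2-fold lower. With DMSO it measured 6.74, 6.27 and 7.2 RPKM and after 30 min 6.89, 6.26 and 6.22 RPKM, which overlap. All 3 ISRE cores of its printed promoter are nearer the start than those of IFIT1 and IFIT3.

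**Figure D4:**
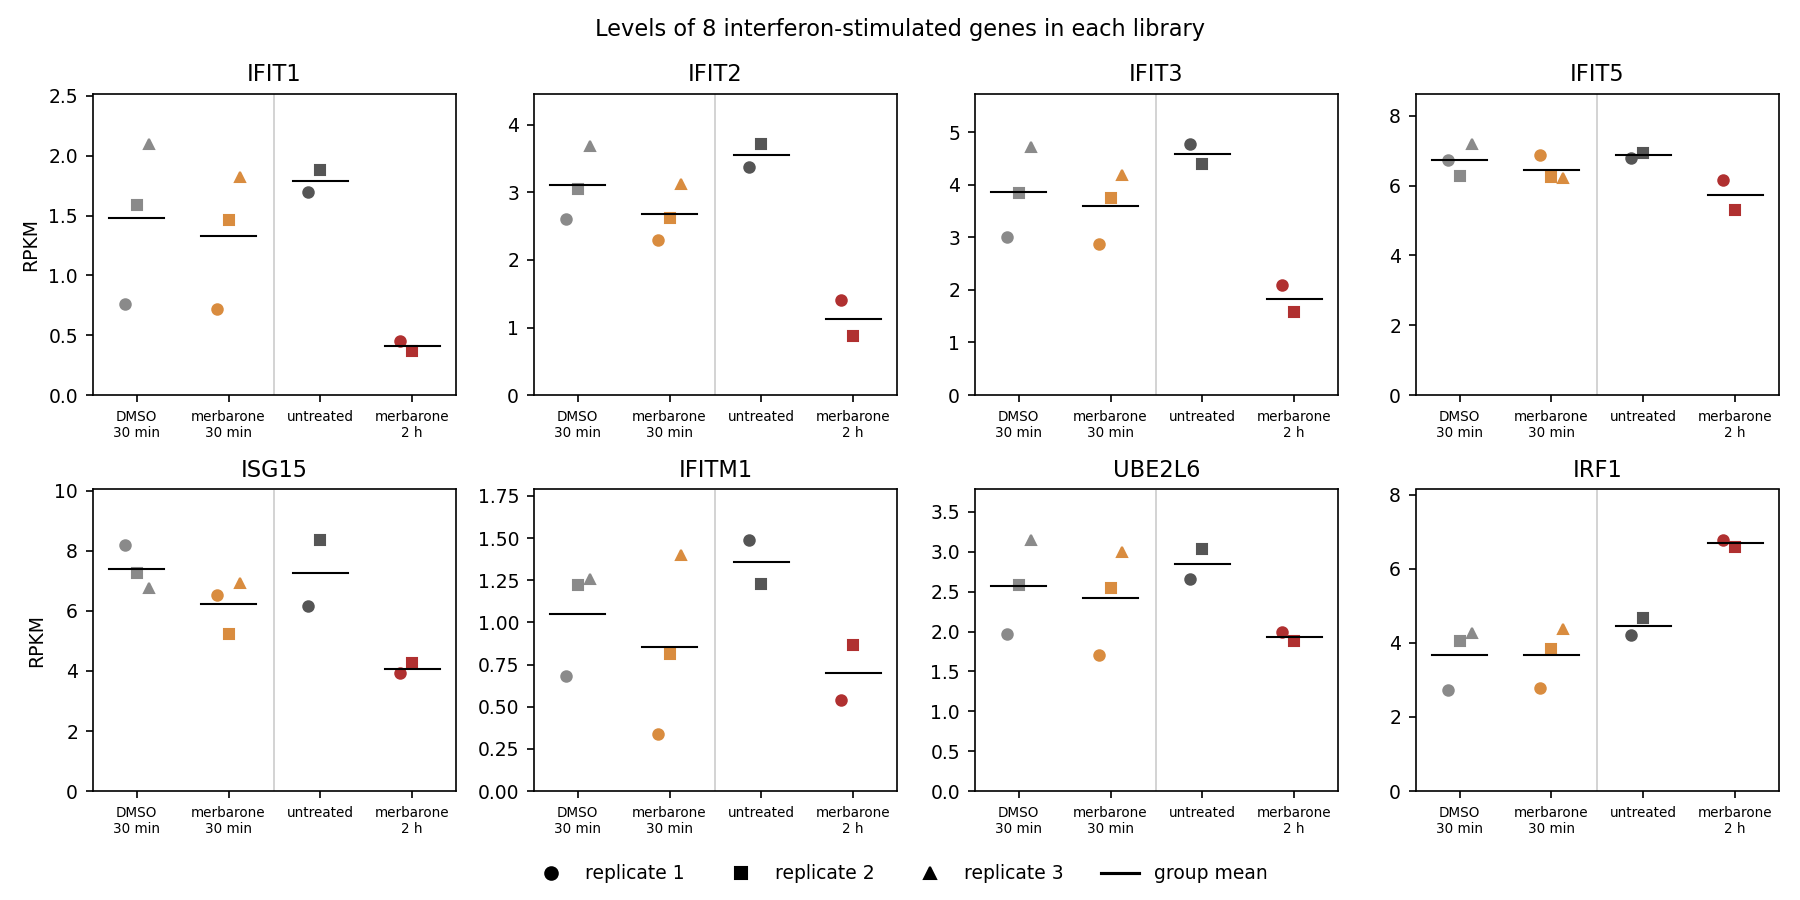
RPKM in each of the 10 libraries for 8 interferon-stimulated genes, with the group mean as a black line and the replicate number as the symbol; each vertical axis starts at 0 and has its own scale, and the grey line separates the experiments. At 2 h both treated libraries lie below both untreated libraries for 7 genes and above them for IRF1, while all groups overlap at 30 min.

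The positions of 3 of the 4 genes make their values uncertain. IFIT1, IFIT2 and IFIT3 overlap LIPA, a lysosomal lipase gene, on its opposite strand by the annotation used here, and the sources used here do not say if counting took strand into account. LIPA itself fell from 1.29 ± 0.09 to 0.931 ± 0.085 RPKM at 2 h (SD, n = 2; log2 -0.25 ± 0.07, limma adjusted p = 0.0447), a smaller difference than those of the IFIT genes. The lengths behind the deposited values were 11448 bases for IFIT1, 7325 for IFIT2 and 13083 for IFIT3, against annotated spans of 13942, 25578 and 50167 bases, so the authors' gene models were shorter. Reads of IFIT genes can also match each other where the paralogs are alike.

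ISG15 is a ubiquitin-like protein that is attached to other proteins, and UBE2L6 is the conjugating enzyme of that reaction. Both were lower at 2 h. ISG15 (chromosome 1, 936518 to 949920, plus strand) spans 13403 bases by the annotation used here, while the length behind its deposited values was 1118 bases. Its untreated libraries had 6.17 and 8.37 RPKM and the treated 3.92 and 4.25 RPKM. The mean was 1.78-fold lower (log2 -0.69 ± 0.13), on 60 to 112 reads. At 30 min it had 8.19, 7.26 and 6.76 RPKM with DMSO and 6.54, 5.23 and 6.92 RPKM with merbarone (log2 -0.22 ± 0.11). The groups overlapped by 1 treated library at that time and did not overlap at 2 h.

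UBE2L6 (chromosome 11, 57319129 to 57335757, minus strand) had 2.66 and 3.04 RPKM in untreated cells and 1.99 and 1.88 RPKM at 2 h, a mean 1.47-fold lower (log2 -0.39 ± 0.08). At 30 min its values were 1.97, 2.58 and 3.15 RPKM with DMSO and 1.71, 2.54 and 3.00 RPKM with merbarone, which overlap. It did not pass without 1 or the other of the 2 h merbarone libraries, with log2 fold changes of -0.42 and -0.36, nor with all 10 libraries in 1 fit. HERC5, the main ligase for ISG15, and HERC6 stayed at or below 0.336 RPKM, too low for this test, as did USP18. By voom their log2 fold changes at 2 h were -0.33 ± 0.22 for HERC5 and -0.13 ± 0.17 for HERC6, and neither passed.

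Of the membrane restriction factors, IFITM1 was lower at 2 h. It had 1.49 and 1.23 RPKM in untreated cells and 0.537 and 0.868 RPKM after merbarone (log2 -0.47 ± 0.10). These values rest on 13 to 35 reads per library. Voom, which takes that into account, did not call it (-0.98 ± 0.36), and neither did the fit without merbarone replicate 1 of the 2 h experiment (-0.33) or that of all 10 libraries. With DMSO it had 0.680, 1.22 and 1.26 RPKM and after 30 min 0.336, 0.815 and 1.40 RPKM, too low on average to be tested there.

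For IFITM2 both treated libraries at 2 h, 7.33 and 7.01 RPKM, lay below the untreated 8.15 and 10.5 RPKM (log2 -0.33 ± 0.12), which did not pass. The values after 30 min were 4.49, 4.67 and 4.95 RPKM, which overlap the DMSO values. IFITM3 had 10.2 and 10.1 RPKM after 2 h against 10.6 and 14.0 RPKM untreated (log2 -0.24 ± 0.13, not passing). Without untreated replicate 1, the lower control of both genes, IFITM2 (-0.49) and IFITM3 (-0.43) did pass. After 30 min it had 2.58, 2.34 and 2.95 RPKM. These 2 genes are near-identical copies in part of their sequence, so reads may be split between them.

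Of the transcription factors 3 were tested, and IRF1 alone passed, at 2 h. STAT2, a subunit of ISGF3, had 8.92 and 8.77 RPKM untreated and 8.89 and 7.91 RPKM at 2 h (log2 -0.07 ± 0.10). With DMSO it had 6.45, 10.6 and 8.85 RPKM and after 30 min 6.18, 10.2 and 9.05 RPKM (log2 -0.03 ± 0.22). Its groups overlapped at both times. IRF9, the DNA-binding subunit of ISGF3, had 4.64 and 4.97 RPKM untreated and 3.99 and 3.82 RPKM at 2 h (log2 -0.24 ± 0.08), which did not pass although the groups did not overlap. At 30 min it had 3.07, 4.72 and 3.72 RPKM with DMSO and 2.58, 4.24 and 3.70 RPKM with merbarone. IRF9 overlaps a gene without a symbol on the same strand, so its reads may be shared.

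IRF1, a factor induced mainly through the GAS and by interferon gamma, was the 1 member that was higher. It rose from 4.20 and 4.68 RPKM to 6.78 and 6.58 RPKM at 2 h, a ratio of 1.5 (log2 0.50 ± 0.09; voom 0.59 ± 0.12). By the annotation used here the gene (chromosome 5, 131776132 to 131844411, minus strand) overlaps the antisense gene IRF1-AS1, which averaged 0.164 RPKM untreated and 0.216 RPKM at 2 h. That span is 68280 bases, while the length behind the deposited IRF1 values was 9194 bases, so the authors' gene model was shorter. At 30 min IRF1 had 2.74, 4.04 and 4.27 RPKM with DMSO and 2.79, 3.83 and 4.38 RPKM with merbarone (log2 -0.0042 ± 0.18). The call was lost without merbarone replicate 1 of the 2 h experiment, at a log2 fold change of 0.48, and with all 10 libraries in 1 fit. IRF7, the factor that amplifies interferon alpha genes, was just below the filter. It had 0.566 and 0.849 RPKM untreated and 1.27 and 1.09 RPKM at 2 h, on 26 to 60 reads, and voom gave 0.77 ± 0.29, which did not pass.

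Of the OAS genes and EIF2AK2, only OAS3 and EIF2AK2 were high enough to be tested, and neither passed. OAS3, an oligoadenylate synthetase that activates RNase L, had 1.28 and 1.16 RPKM untreated and 1.12 and 1.25 RPKM at 2 h. Its values were 1.48, 1.72 and 2.04 RPKM with DMSO and 1.21, 1.84 and 1.77 RPKM after 30 min. EIF2AK2, the kinase PKR that halts translation, had 1.79 and 1.28 RPKM untreated and 1.78 and 1.55 RPKM at 2 h. In the 30 min experiment it had 2.30, 2.4 and 2.38 RPKM with DMSO and 2.27, 2.30 and 2.18 RPKM. In both genes the groups overlapped at both times. OAS1 was too low for this fit, at 0.168 and 0.128 RPKM untreated and 0.0661 and 0.0603 RPKM at 2 h on 20 to 57 reads. By voom it was lower, with a log2 fold change of -1.21 ± 0.31. OAS2 had 2 to 7 reads per library in the 2 h experiment.

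The IFI genes, named for their induction by interferon, did not pass at 2 h in this fit. IFI6, a mitochondrial and endoplasmic reticulum protein, had 2.42 and 2.59 RPKM untreated and 1.64 and 2.04 RPKM at 2 h (log2 -0.31 ± 0.09). Its 30 min values were 2.61, 2.73 and 2.09 RPKM with DMSO and 1.79, 1.99 and 2.49 RPKM with merbarone. The groups did not overlap at 2 h and overlapped at 30 min. IFI35 had 1.85 and 2.32 RPKM untreated and 1.57 and 1.73 RPKM at 2 h (log2 -0.22 ± 0.09). Its DMSO libraries had 2.26, 2.18 and 2.30 RPKM and after 30 min 1.82, 1.94 and 2.28 RPKM. With the replicate number as a block, a description at 2 h, both IFI6 and IFI35 were called lower. IFI44 and IFI44L, a pair of related cytoplasmic proteins, were below the filter. By voom IFI44L was lower at 2 h (-0.58 ± 0.18, on 120 to 232 reads) and IFI44 (-0.46 ± 0.21) did not pass. IFI27, also below the filter, went the other way, from 0.146 and 0.127 RPKM untreated to 0.197 and 0.181 RPKM at 2 h. It rested on 18 to 32 reads, and voom did not call it (0.46 ± 0.33).

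Among the other antiviral effectors, SAMD9L and TRIM22 were tested, and treated and control libraries overlapped at each time. SAMD9L, an inhibitor of translation, had 1.82 and 1.38 RPKM untreated and 1.55 and 1.52 RPKM at 2 h. It had 2.03, 2.76 and 2.79 RPKM with DMSO and 1.96, 2.79 and 2.51 RPKM after 30 min. TRIM22, a RING-finger protein of the tripartite motif family, had 2.07 and 1.68 RPKM untreated and 1.87 and 1.93 RPKM at 2 h. Its 30 min values were 1.67, 2.32 and 2.38 RPKM with DMSO and 1.63, 2.33 and 2.4 RPKM with merbarone. GBP1, a GTPase induced chiefly by interferon gamma, had 1.73 and 1.80 RPKM untreated and 1.78 and 1.52 RPKM at 2 h. With DMSO it had 1.69, 0.987 and 1.08 RPKM and after 30 min 1.92, 1.06 and 1.06 RPKM, so its replicate 1 was the highest in both groups.

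PARP9 and DTX3L form a complex that marks histones and viral proteins, and PARP14 is a related ADP-ribosyltransferase. DTX3L had 5.36 and 4.82 RPKM untreated and 5.10 and 4.73 RPKM at 2 h, and at 30 min 5.08, 6.16 and 6.11 RPKM with DMSO against 4.91, 5.72 and 5.31 RPKM. For PARP14 the 2 h experiment gave 1.29 and 0.997 RPKM untreated and 1.28 and 1.28 RPKM treated, and the other 1.40, 1.54 and 1.75 RPKM with DMSO and 1.33, 1.48 and 1.59 RPKM after 30 min. Neither passed, and their groups overlapped. PARP9 had 0.886, 1.10 and 1.16 RPKM with DMSO and 0.775, 1.07 and 1.05 RPKM after 30 min. It had 0.995 and 0.905 RPKM untreated and 0.705 and 0.653 RPKM at 2 h, where it missed the filter and voom called it lower (-0.48 ± 0.14). PARP9 and DTX3L overlap on opposite strands, so their reads may not be fully separated.

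PSMB9, a catalytic subunit of the immunoproteasome, and TAP1, a chain of the peptide transporter into the endoplasmic reticulum, share a divergent promoter and overlap in the annotation. PSMB9 had 3.54 and 3.63 RPKM untreated and 2.75 and 3.51 RPKM at 2 h (log2 -0.16 ± 0.10). The DMSO libraries had 3.01, 3.18 and 3.40 RPKM and after 30 min 3.05, 3.24 and 3.30 RPKM. TAP1 had 4.98 and 4.84 RPKM untreated and 4 and 5.11 RPKM at 2 h (log2 -0.10 ± 0.11). Its values were 4.07, 4.23 and 4.54 RPKM with DMSO and 4.21, 4.37 and 4.27 RPKM after 30 min. Neither passed at either time.

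Counting the recovered reads brought 36 members into the 2 h comparison. By voom 8 of them were lower and 1 higher, where 6.03% and 7.87% of 13442 genes were. The lower ones were IFIT1, IFIT2, IFIT3, OAS1, ISG15, IFI44L, UBE2L6 and PARP9, and IRF1 was higher. The median log2 fold change was -0.23 for the 36 and 0.0003 for all genes. ISG20 had 13 to 33 reads and the largest positive value among the members, 1.04 ± 0.36, which did not pass. At 30 min voom tested 39 members and called 0 of them, with a median of -0.11, against -0.0021 for all genes. MX2 was the 1 member of the 45 whose 30 min libraries all lay below the DMSO libraries, on 1 to 18 reads, too few for any of these tests.

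Promoter matches were set beside the 2 h values. Of the 6 lower members 5 had a promoter in the table and 4 of them held the core, against 9 of 14 members that did not pass and 0 of 1 that was higher. The median log2 fold change was -0.23 for the 13 tested members with the core and -0.16 for the 7 without. The GAS core was held by 1 of the 5 lower members (IFITM1), by IRF1 and by 4 of the 14 that did not pass, with medians of -0.16 for the 6 tested members with it and -0.19 for the 14 without. Members that hold the ISRE core ranged from IFIT1 at -0.99 to PARP14 at 0.09. All of this is description, since the members were chosen on these values and IFIT2 had no promoter entry. Whether the core goes with the change at 2 h was not tested.

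In the 30 min experiment the median shift of replicate 1 among tested members exceeded their median change with merbarone (log2 -0.06). Not every member did so. ISG15 changed by -0.22 with merbarone, and its replicate 1 stood at 0.20 with DMSO and 0.10 with merbarone. For 15 of the 23 tested members replicate 1 was the lowest of its group with DMSO and with merbarone, as it was for 37.1% of all tested genes. The median difference of replicate 1 from the mean of the other two was -0.20 with DMSO and -0.21 with merbarone in the members, and -0.03 in both groups over all genes, on the log2(RPKM + 1) scale. IFIT1 showed -0.69 and -0.62 and STAT2 -0.52 and -0.56, while GBP1 went the other way at 0.40 and 0.50. What the same-numbered libraries shared is not given in the labels. With the replicate number as a block, 0 members passed at 30 min, and 5 of 23 had an unadjusted p under 0.05, as did 208 of all 6500 genes.

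**Figure D5:**
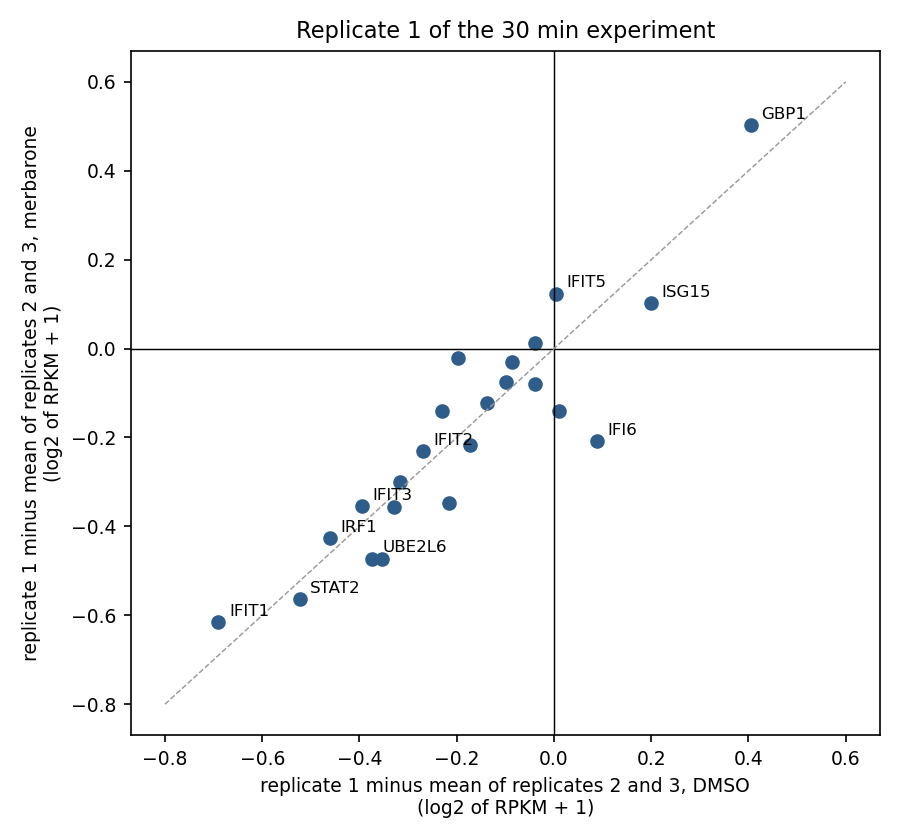
Replicate 1 minus the mean of replicates 2 and 3 for each of the 23 interferon-stimulated genes tested at 30 min, in log2 of RPKM + 1, with DMSO on the horizontal axis and merbarone on the vertical axis; the dashed line marks equal differences. Most points lie below and to the left of 0 and close to the line, with IFIT1 lowest and GBP1 highest.

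The rest of the pathway was read from 94 genes outside the set, in lists of ligands, receptors, factors, sensors, regulators, antigen presentation and other interferon-stimulated genes, of which 93 were found. At 30 min 45 were tested with limma and 0 passed, at adjusted p under 0.05, with 0 at an unadjusted p under 0.05 there and 0 by voom. With the replicate number as a block, 2 of 45 in limma and 2 of 78 by voom had an unadjusted p under 0.05. Of all genes, 208 of 6500 in limma and 480 by voom did. At 2 h 43 were tested, 4 were lower and 2 higher, against the 7.10% and 5.98% of all genes given above. Their median log2 fold change was -0.08, and -0.05 for all genes. The difference between the effects at 2 h and 30 min was tested for 44 of them. By limma 0 of the 44 passed at adjusted p under 0.05, where 1.63% of 6558 genes did. At an unadjusted p under 0.05 there were 9, a threshold for which no share of all genes is given here. In this contrast time, kind of control and experiment cannot be told apart.

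Interferon transcripts themselves were scarce. IFNB1, IFNA2, IFNK, IFNG, IFNL1, IFNL2 and IFNL3 had 0 reads in every library, and IFNA1 at most 3. IFNE, an epithelial type I interferon that is made without infection in the reproductive tract, was the 1 ligand tested, at 1.78, 2.08 and 1.83 RPKM with DMSO and 2.06, 2.99 and 1.94 RPKM after 30 min. It had 1.22 and 1.02 RPKM untreated and 1.19 and 0.990 RPKM at 2 h (log2 -0.02 ± 0.08, limma adjusted p = 0.867).

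None of the tested receptors, kinases or other STAT and IRF factors passed at 2 h, 0 of 6 and 0 of 4. The median log2 fold changes of these lists were -0.01 and -0.06. JAK1 had a log2 fold change of 0.14 ± 0.06 (limma adjusted p = 0.176) and IFNAR1, a chain of the type I receptor, of -0.10 ± 0.10 (adjusted p = 0.543).

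SOCS3, a feedback inhibitor of JAK kinases, had the largest log2 fold change of the 43 pathway genes tested by limma at 2 h. It rose from 10.7 and 12.3 RPKM to 19.8 and 18.9 RPKM at 2 h (log2 0.71 ± 0.11, limma adjusted p = 0.00398). Its adjusted p ranged from 1.32e-10 to 0.111 over the alternatives, and the call was lost in 2 of 14, with all 10 libraries in 1 fit and without the filter. At 30 min it had 4.61, 7.35 and 6.56 RPKM with DMSO and 4.22, 7.79 and 7.92 RPKM, which overlap. PTPN11, the other negative regulator in this fit, did not pass (log2 -0.04 ± 0.09). Below its filter, the phosphatase PTPN2 was higher by voom (log2 0.60 ± 0.15, adjusted p = 0.0093, 197 to 354 reads). SOCS1, a relative of SOCS3, went from 0.38 and 0.377 RPKM to 0.823 and 0.993 RPKM on 8 to 23 reads, and voom did not call it (log2 1.2 ± 0.40, adjusted p = 0.0514).

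Of 5 tested sensors and adaptors 1 was lower at 2 h. MYD88, the adaptor of Toll-like and interleukin-1 receptors, went from 5.76 and 6.62 RPKM to 4.50 and 4.82 RPKM (log2 -0.34 ± 0.10, limma adjusted p = 0.0468). That call was lost in 7 of 14 alternatives, whose adjusted p ranged from 0.00103 to 0.404, among them those without untreated replicate 2 or without either 2 h merbarone library. STING1, the adaptor for cytosolic DNA, had -0.30 ± 0.09 (adjusted p = 0.0615) and MAVS, the adaptor of RIGI and IFIH1, -0.04 ± 0.09.

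In the antigen presentation list 1 of 12 was lower at 2 h, and the median log2 fold change was -0.14. PSMB8, an immunoproteasome subunit encoded beside TAP1, went from 14.0 and 15.4 RPKM to 11 and 11 RPKM (log2 -0.38 ± 0.10, limma adjusted p = 0.0372, 0.000911 to 0.301 over the alternatives). It overlaps PSMB9 on the opposite strand, and the call was lost without either 2 h merbarone library. B2M, the light chain of class I molecules, did not pass, with a log2 fold change of -0.25 ± 0.11 (limma adjusted p = 0.153).

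Of 13 other interferon-stimulated genes tested at 2 h, 2 were lower and 1 was higher, with a median of -0.05. TRIM21, a ubiquitin ligase that binds antibody inside cells, fell from 3.45 and 3.38 RPKM to 2.35 and 2.10 RPKM (log2 -0.46 ± 0.08, limma adjusted p = 0.00871, 4.69e-07 to 0.1 over the alternatives). GBP3, a relative of GBP1, fell from 3.21 and 3.22 RPKM to 2.42 and 2.35 RPKM (log2 -0.32 ± 0.08, adjusted p = 0.0291, 0.000838 to 0.262). HELZ2, a helicase, rose from 0.799 and 0.890 RPKM to 1.12 and 1.41 RPKM (log2 0.29 ± 0.08, adjusted p = 0.0388, 4.06e-05 to 0.197). It averaged 0.844 RPKM untreated and 1.27 RPKM treated, so it passed the filter only through the treated group. Without merbarone replicate 2 of the 2 h experiment neither TRIM21 (adjusted p = 0.0921) nor GBP3 (0.262) passed, and without replicate 1 GBP3 did not (0.232). UBA7, the activating enzyme for ISG15, had 3.42 RPKM on average in untreated cells and a log2 fold change of -0.17 ± 0.09 (adjusted p = 0.238).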

How the data were processed

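RNA was sequenced from 10 libraries of hTERT RPE-1 cells (TruSeq Stranded mRNA, 150 ng of total RNA, per the labels' protocols). Each library has its own table, in which the authors give every Ensembl gene its RPKM (unit per the file headers). The submitters' processing notes name hg19, GRCh37, Bowtie 1.2.0, edgeR, DESeq2 and deepTools 2.4.1, with no role. The read counter, its use of strand and the annotation are not given in the sources used here.

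Reads were recovered from the deposited RPKM values, in which steps of a single read could be told apart for 100% of 17680 genes above 0 (within 0.01). The gene length implied lay within 1% of the GRCh37 span for 75% of genes and of the summed exon length for 1.6%. Symbols, for 19174 of 20327 genes, and positions come from GENCODE 44 lifted to GRCh37.

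Each experiment was fitted on its own with limma 3.58.1 (R 4.3.3), lmFit and eBayes(trend=TRUE), on log2(RPKM + 1), for genes whose mean reached 1 RPKM, with Benjamini-Hochberg adjustment over all genes tested. Tests were two-sided and first tested on simulated data. The alternative on recovered reads was voom with a mean of at least 10 reads. All other settings and their effect are given at the end. Tables were made with Python 3.11.15, NumPy 2.4.6 and pandas 2.3.3, and plots with matplotlib 3.10.9. Same-numbered libraries of the 30 min experiment deviated together from their group means (correlations of 0.925, 0.646 and 0.605), so the numbers pair them by the data; the labels give only the number. Depth ran from 11960134 to 38230034 reads, so genes with few reads at 2 h are the least certain.

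The members, lists and tests were chosen with earlier results of these data known. By the rule for named genes, each IFIT gene and each member with a mean of at least 1 RPKM in either experiment has its value in every library, and the others have ranges and reads. Of the pathway lists, those that passed are named, with the ligands and main signalling genes. One of 94 pathway genes was not analysed here.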

Additional observations from a re-analysis of the deposited data

How the results depend on the processing

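No called result changed direction under any alternative that was run, and at 30 min 0 members and 0 pathway genes passed under each of them. At 2 h the counts moved, though not by over 1.5 times with a pseudocount of 0.1 or median scaling. For members lower (6), no filter on low values gave 0 and a mean of at least 5 RPKM gave 1. The replicate block gave 12, with IFIT5, IRF9, IFITM2, IFITM3, IFI6 and IFI35 added, and voom with the replicate block gave 12. Over all genes the block also raised the number at an unadjusted p under 0.05. It went from 2070 to 2749 in limma and from 3864 to 4897 by voom. Apart from voom, no share of all genes called is given for these alternatives, so the counts describe the fits. For members higher (1), the values were 0 without the filter, 0 with all 10 libraries in 1 fit and 3 by voom with the block (IRF1, IRF7 and ISG20). For pathway genes lower (4), they were 0 without the filter, 2 with quantile normalization, 10 with the block and 12 by voom with the block. For pathway genes higher (2), they were 0 without the filter, 1 each with a mean of at least 5 RPKM, quantile normalization, eBayes without trend and all 10 libraries in 1 fit, 4 by voom and 8 by voom with the block. For a different effect at 2 h than at 30 min (0 pathway genes), they were 2 without the filter, 1 with eBayes without trend, 10 with the block and 14 by voom with the block. Leaving out 1 library at a time gave 4 to 9 members lower, 0 to 4 members higher, 0 to 11 pathway genes lower and 1 to 4 higher at 2 h. The extremes came without untreated replicate 1 (9, 4, 11 and 4), and the lows without merbarone replicate 1 (4 and 0 members) or 2 (0 and 1 pathway genes). An arm then has 1 library, assumed to vary like the other. IFIT1, IFIT2, IFIT3 and ISG15 lost the call at 2 h without the filter and in no other alternative in which they were tested. The cause was not tested.

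Same-numbered libraries of the 2 h experiment shared deviations at a correlation of 0.3, and with 2 pairs the numbers are not counted as pairing them, so the block there is a description. Scaling moved the split of all 2 h calls: 45.7% were higher as reported, 52.4% after median scaling, 53.8% after quantile normalization and 56.6% by voom. The median of all genes was -0.05, -0.03, -0.02 and 0.0003 there, and that of the members -0.22, -0.20, -0.14 and -0.23. Depth limits genes with few reads most: ISG15, IFITM1 and OAS1 at 2 h rest on 13 to 112 reads per library.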
